A study of Bos taurus with 6 samples.

Results

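The genes of the basement membrane core were followed in bovine embryonic stem cells (bESCs) grown on 2 kinds of feeder layer. The 10 genes were picked by their role in the basement membrane, at a time when results of these data were already known: COL4A1 and COL4A2 for collagen IV, LAMA1, LAMA5, LAMB1 and LAMC1 for laminins, NID1 and NID2 for nidogens, and HSPG2 and AGRN for the proteoglycans perlecan and agrin. They were matched by symbol and by Entrez identifier to the deposited count table. Of these 10 genes, 9 were among the 19163 genes of the table, and LAMA5 was not analysed here.

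All cells belonged to F7, 1 line of Holstein Friesian pluripotent cells obtained by in vitro fertilisation, so other lines are not covered. MC-F7 was F7 on mouse embryonic fibroblasts (MEFs) whose division had been stopped with mitomycin C, and MT-F7 was F7 on MEFs killed by methanol fixation, both for 15 passages. Each group had 3 libraries, made from the cells still floating after 25 min on a gelatin-coated dish, a step used to leave feeder cells behind. By the study's methods, the medium was changed daily in MC-F7 and every other day in MT-F7, so the feeder and the feeding schedule cannot be told apart. The MC-MEFs were living mouse cells, and the reads were aligned to the cattle genome. The study reports a lower alignment rate in MC-F7 than in MT-F7, and proposes that cultures on fixed feeders held fewer contaminating feeder cells. The part of mouse reads in the values below was not tested.

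Basement membranes are thin sheets of matrix on which epithelia rest, and an early one separates the epiblast from the primitive endoderm in the embryo. Laminin trimers, each of an alpha, a beta and a gamma chain, polymerise on the cell surface, and a covalent collagen IV network forms beside them. Nidogens bridge these networks, and perlecan and agrin carry heparan sulfate chains that hold growth factors such as FGF. Laminins are also widely used as a substrate for pluripotent stem cells.

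Libraries held 21958386 to 24933430 counts on genes, and 3 counts, the smallest amount taken as detected, were 0.12 to 0.137 CPM (counts in every 1000000 counts of a library, whose size TMM factors correct for unlike composition in the values below). Such limits cover counting error only. The mitochondrial genome took 16.3 to 28.3% of the counts in MC-F7 and 18.0 to 27.9% in MT-F7, and in both groups replicate 3 had the highest share. The pluripotency gene POU5F1 was at 825 to 1456 CPM in MC-F7 and at 486 to 557 CPM in MT-F7, so it was abundant in both. Of 7 tested markers of pluripotent cells, 6 were lower in MT-F7 and 1 did not pass the test, beside 11.3% lower among all genes. Their log2 fold changes (MT-F7 over MC-F7) had a median of -1.20 and ran from -3.22 to 0.33. Separate cultures are not stated for the replicates, so p values measure only the spread between these libraries, which may be technical.

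Of the 9 genes, 5 were higher in MT-F7 (COL4A1, COL4A2, LAMA1, NID2 and AGRN) and 0 were lower, by edgeR's quasi-likelihood test with a threshold of 0.05 for the adjusted p. The increases ran from 1.78-fold for AGRN to 3.77-fold for NID2. The remaining 4, LAMB1, LAMC1, NID1 and HSPG2, did not pass. Among all 13001 genes tested, 11.9% were higher and 11.3% lower by the same rule, and 23.2% passed in either direction. The median log2 fold change (MT-F7 over MC-F7) was 0.83 over the 9 genes, with a range from 0.062 to 1.91, against -0.0026 over all genes tested. In 6 of the 9 genes every MT-F7 library was above every MC-F7 library, and 19.9% of all genes tested had that arrangement. In 0 of them was every MT-F7 library below, against 20.1% of all genes. The 5 calls held in each of the 6 fits with 1 library left out. With a log2 fold change over 1 required as well, NID2, COL4A2 and LAMA1 passed, against 6.13% of all genes. In bulk RNA, more cells of a type and more RNA per cell cannot be told apart.

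**Figure D1:**
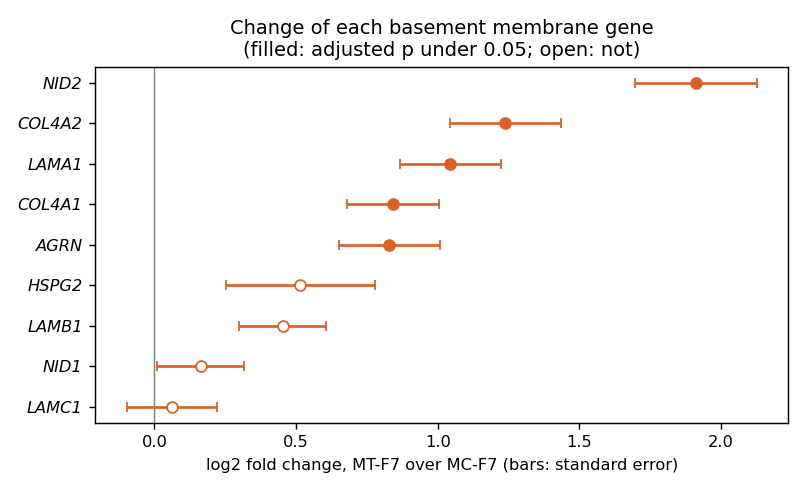
The log2 fold change of each of the 9 genes (MT-F7 over MC-F7, x axis) with its standard error, from edgeR's quasi-likelihood fit. Filled points had an adjusted p under 0.05. All 9 points lie above 0, from 0.062 for LAMC1 to 1.91 for NID2.

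COL4A1 and COL4A2 encode the alpha-1 and alpha-2 chains, which join 2 to 1 in the most common collagen IV molecule. The genes neighbour each other in the cattle RefSeq annotation (ARS-UCD2.0), with 0 protein-coding genes starting between them. COL4A1 (Entrez 282191) was at 28.8, 35.0 and 27.5 CPM in the MC-F7 libraries and at 54.1, 48.3 and 61.4 CPM in the MT-F7 libraries. The groups did not overlap, and the lowest MT-F7 library was well above the highest MC-F7 library. The mean rose from 30.4 ± 3.99 to 54.6 ± 6.58 CPM (SD, n = 3), a log2 fold change of 0.84 with a standard error of 0.163 (edgeR adjusted p = 0.0026).

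COL4A2 (Entrez 508632) had 33.0, 43.7 and 47.7 CPM in MC-F7 and 89.7, 80.8 and 123 CPM in MT-F7. Every MT-F7 library was again above every MC-F7 library, and replicate 3 was the highest of its group on both feeders. The mean rose from 41.5 ± 7.64 to 97.8 ± 22.2 CPM, which is 2.36-fold (log2 fold change 1.24, standard error 0.195, edgeR adjusted p = 6.2e-04). Whether COL4A2 gained more than its partner was examined as a ratio of levels per length, taken from the deposited TPM values within each library. COL4A2 was 1.29, 1.41 and 1.97 times the level of COL4A1 in MC-F7 and 1.88, 1.89 and 2.27 times in MT-F7. The highest MC-F7 ratio was above 2 of the MT-F7 ratios. The difference of 0.39 in the log2 ratio did not pass an exact two-sided permutation test (p = 0.3), in which 3 against 3 libraries cannot go below 0.1.

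LAMA1 encodes the alpha-1 chain of laminin-111, the laminin of the earliest embryonic basement membranes. LAMA1 (Entrez 506387) was at 10.5, 12.4 and 13.8 CPM in MC-F7 and at 26.7, 21.2 and 27.7 CPM in MT-F7. These values rest on 238 to 298 counts per MC-F7 library and 549 to 670 per MT-F7 library, and the groups lay clearly apart. The mean rose from 12.2 ± 1.64 to 25.2 ± 3.50 CPM, which is 2.06-fold (log2 fold change 1.04, standard error 0.179, edgeR adjusted p = 0.0011).

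LAMB1 and LAMC1 encode the beta-1 and gamma-1 chains, which are shared by many laminins. LAMB1 (Entrez 520030) was at 163, 176 and 154 CPM in MC-F7 and at 250.3, 233 and 191 CPM in MT-F7. The groups did not overlap, but the gap between the MT-F7 replicate 3 and the highest MC-F7 library was small. Means were 164 ± 10.8 and 225 ± 30.3 CPM, and the log2 fold change of 0.45 (standard error 0.154) missed the threshold narrowly (edgeR adjusted p = 0.051). Across the alternatives tried its adjusted p ran from 0.0029 to 0.213. It passed with DESeq2 (adjusted p = 0.023) and without replicate 3 of MT-F7 (0.014), so the result for LAMB1 depends on the test and on 1 library.

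LAMC1 (Entrez 532572) was at 62.6, 70.6 and 56.0 CPM in MC-F7 and at 76.1, 59.5 and 61.9 CPM in MT-F7. The groups overlapped, with means of 63.1 ± 7.32 and 65.8 ± 8.97 CPM. The log2 fold change was 0.062 with a standard error of 0.159 (edgeR adjusted p = 0.82), and it changed sign when MC-F7 replicate 3 or MT-F7 replicate 1 was left out (-0.023 and -0.063). Per length, LAMB1 was 3.23, 3.09 and 3.42 times the level of LAMC1 in MC-F7 and 4.08, 4.86 and 3.83 times in MT-F7. The ratio was higher in every MT-F7 library, a difference of 0.39 on the log2 scale with the smallest p that 3 against 3 libraries can give (exact permutation test, p = 0.1).

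NID1 and NID2 encode nidogen-1 and nidogen-2, closely related linkers that bind the laminin gamma-1 chain and collagen IV. NID2 (Entrez 521854) had 5.18, 6.76 and 5.71 CPM in MC-F7 and 20.9, 28.2 and 17.4 CPM in MT-F7. It had 117, 163 and 122 counts in MC-F7, against 525, 729 and 409 counts in MT-F7, and the lowest MT-F7 library was far above the highest MC-F7 library. The mean rose from 5.88 ± 0.805 to 22.1 ± 5.50 CPM, which is 3.77-fold (log2 fold change 1.91, standard error 0.214, edgeR adjusted p = 4.5e-05).

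NID1 (Entrez 534319) was at 76.1, 65.5 and 57.7 CPM in MC-F7 and at 77.2, 77.4 and 68.8 CPM in MT-F7. The groups overlapped, and the highest MC-F7 library was close to the highest MT-F7 libraries. Its log2 fold change was 0.16 with a standard error of 0.153 (edgeR adjusted p = 0.48). Per length, NID2 stood at 0.0846, 0.128 and 0.123 of the level of NID1 in MC-F7 and at 0.337, 0.453 and 0.314 in MT-F7. The log2 ratio was higher by 1.72 in MT-F7, and all MT-F7 libraries were above all MC-F7 libraries (exact permutation test, p = 0.1, the smallest possible). NID1 remained the more abundant nidogen in every library.

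HSPG2 and AGRN encode perlecan and agrin, large proteins with laminin-like domains and heparan sulfate chains. AGRN (Entrez 525795) had 147, 157 and 186 CPM in MC-F7 and 256, 252 and 363 CPM in MT-F7. All MT-F7 libraries were above all MC-F7 libraries. The mean rose from 163 ± 20.2 to 290.2 ± 63.4 CPM, which is 1.78-fold (log2 fold change 0.83, standard error 0.180, edgeR adjusted p = 0.0052).

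HSPG2 (Entrez 444872) was at 48.0, 67.1 and 87.9 CPM in MC-F7 and at 77.2, 72.2 and 141 CPM in MT-F7. The groups overlapped, since MC-F7 replicate 3 was above 2 of the MT-F7 libraries. The log2 fold change of 0.51 (standard error 0.263) did not pass (edgeR adjusted p = 0.18). Much of it came from 1 library: without MT-F7 replicate 3 it was 0.13 (adjusted p = 0.70, within a range of 0.0066 to 0.70 over the alternatives), and without MC-F7 replicate 1 it was 0.32.

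Replicate 3 was the highest of its group on both feeders for COL4A2, LAMA1, HSPG2 and AGRN, and the lowest for LAMB1 and NID1. It was also the library with the highest mitochondrial share in each group. The part of that share in these values was not tested. Without replicate 3 of both groups, an alternative chosen after the data had been seen, the 5 genes called higher passed and LAMB1 joined them (adjusted p = 0.0029). Calls rose over all genes as well, to 4242 of 13073 tested (2195 higher, 2047 lower), from 3016 of 13001 in the main test.

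**Figure D2:**
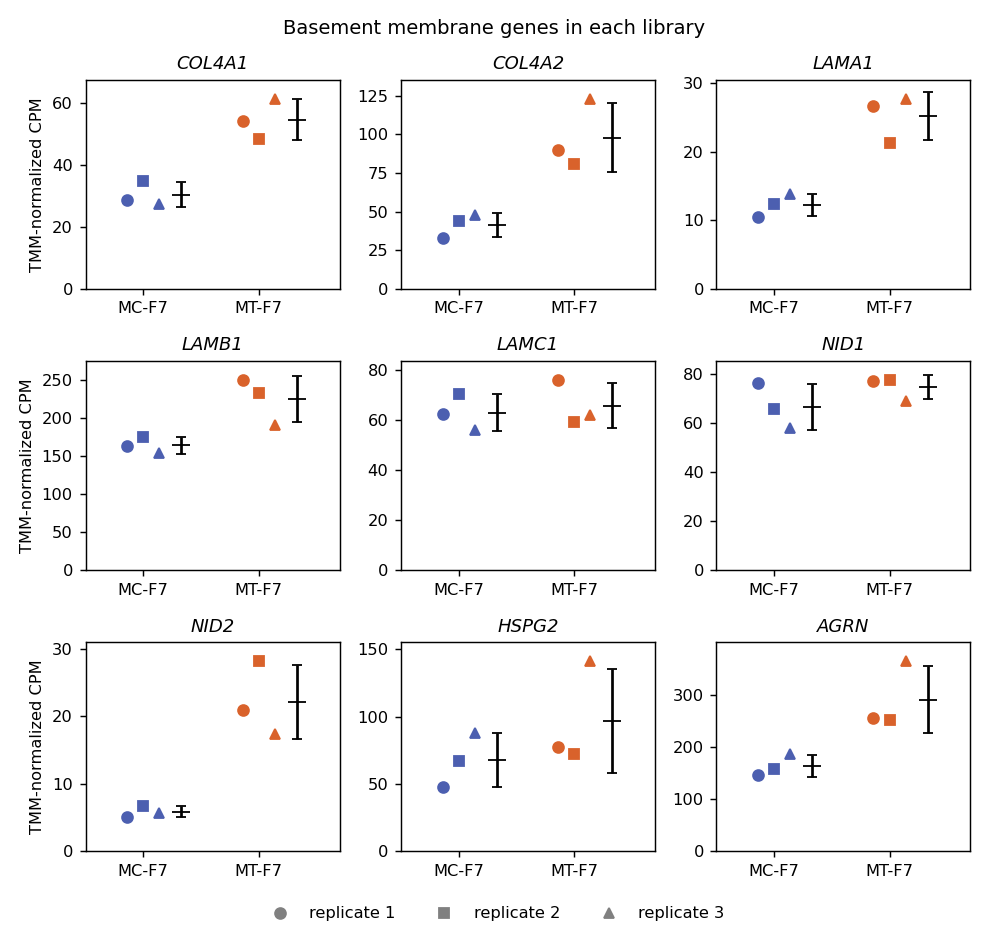
TMM-normalized CPM (y axis, from 0) of the 9 genes in each library. Symbols mark the replicate number and the bars show the group mean ± SD (n = 3). MT-F7 lies wholly above MC-F7 for COL4A1, COL4A2, LAMA1, LAMB1, NID2 and AGRN, and the groups overlap for LAMC1, NID1 and HSPG2.

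Levels of different genes were compared per length, within a group only, since the deposited TPM values were not scaled to the same sum in each library. In MC-F7, LAMB1 was the highest (5.56 ± 0.703 TPM), followed by AGRN (4.30 ± 0.396) and NID1 (2.38 ± 0.394), and in each of these steps down to NID1 the libraries did not overlap. LAMC1 (1.72 ± 0.304 TPM), COL4A2 (1.56 ± 0.282), HSPG2 (1.06 ± 0.282) and COL4A1 (1.02 ± 0.195) came next, each overlapping its neighbour in this order, as NID1 and LAMC1 did. NID2 (0.262 ± 0.0494 TPM) and LAMA1 (0.231 ± 0.0282) lay below COL4A1 and did not differ from each other beyond their spread.

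In MT-F7, AGRN (8.34 ± 1.41 TPM) and LAMB1 (8.33 ± 1.43) shared the top and overlapped. COL4A2 came next at 4.01 ± 0.707 TPM, above NID1 at 2.92 ± 0.322 TPM and below both AGRN and LAMB1 in all libraries, whereas in MC-F7 it had been below NID1. COL4A1 (1.98 ± 0.144 TPM), LAMC1 (1.96 ± 0.288), HSPG2 (1.65 ± 0.569) and NID2 (1.09 ± 0.317) followed, each overlapping the next. LAMA1 was the lowest gene of the set on this feeder, at 0.521 ± 0.0547 TPM.

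The laminin and collagen IV chains outside the 9 genes were read from the same tables. LAMA4, the alpha-4 chain of mesenchymal and vessel laminins, rose from 1.31 ± 0.408 to 6.82 ± 1.34 CPM (log2 fold change 2.39, edgeR adjusted p = 9.3e-05). LAMB3, the beta-3 chain, had a mean of 20.3 ± 7.0 CPM on MC-MEFs and 16.8 ± 7.0 CPM on MT-MEFs (log2 fold change -0.27, adjusted p = 0.53), and LAMA3, the alpha-3 chain, had at most 3 counts in any library. LAMB2 (log2 fold change 0.46, adjusted p = 0.12) and LAMC3 (-1.23, adjusted p = 0.099) did not pass. LAMB2 passed without MC-F7 replicate 3 (0.041, within 0.0082 to 0.40 over the alternatives) and LAMC3 by the likelihood ratio test (0.036, within 0.036 to 0.26).

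As a share of the measured alpha chains per length (LAMA1, LAMA3 and LAMA4), LAMA1 made up 84.5 ± 2.73% in MC-F7 and 68.0 ± 4.05% in MT-F7, and LAMA4 15.4 ± 2.56% and 31.8 ± 4.05%. These shares leave out LAMA2 and LAMA5, which were not analysed here. Among beta chains LAMB1 took 64.2 ± 6.61% and 67.1 ± 9.32%. The sum of LAMA1, LAMA3 and LAMA4 was 0.274 TPM in MC-F7 and 0.767 TPM in MT-F7, against 8.65 and 12.4 TPM for beta chains. LAMA2 and LAMA5 are missing from this sum too, so it is not the level of all alpha chains.

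COL4A5 and COL4A6 encode the chains of a second collagen IV network and were higher in MT-F7 as well. COL4A5 rose from 22.6 ± 4.21 to 65.4 ± 7.71 CPM (log2 fold change 1.53, standard error 0.177, edgeR adjusted p = 5.6e-05). COL4A6 rose from 7.44 ± 2.14 to 22.9 ± 9.76 CPM (1.62, standard error 0.296, adjusted p = 0.0017). COL4A3 had at most 14 counts in any library and was not tested, and COL4A4 was not analysed here. All 4 tested collagen IV chains were thus higher in MT-F7, while of the laminin chains given here LAMA1 and LAMA4 passed the test.

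**Figure D3:**
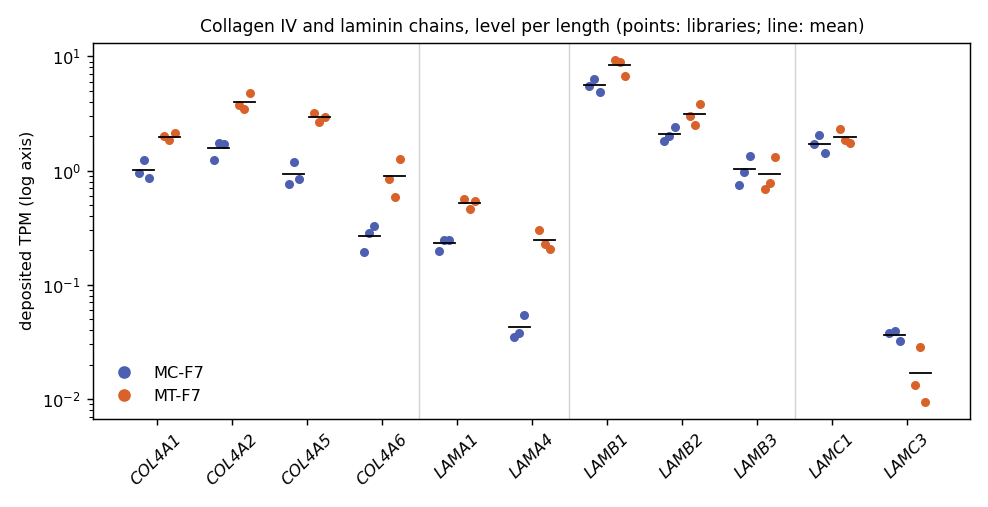
Deposited TPM, a level per gene length (log axis), of 4 collagen IV and 7 laminin chains, with 1 point per library and a line at each mean. The chains are to be compared with each other within a group, since the TPM columns differ in their sum. LAMB1 is the highest chain in both groups, and LAMA1, LAMA4 and LAMC3 lie below COL4A1, COL4A2, LAMB1 and LAMC1.

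Over the 29 other basement membrane components listed, 26 were in the table and 20 were tested, of which 8 were higher in MT-F7, 4 were lower and 8 did not pass (median log2 fold change 0.33), beside 11.9% higher and 11.3% lower among all genes. Besides the chains above, FBLN1, which encodes fibulin-1, rose from 108 ± 21.0 to 327 ± 37.5 CPM (log2 fold change 1.60, edgeR adjusted p = 4.5e-05). SPARC, a collagen-binding matricellular protein, rose from 554 ± 126 to 977 ± 87.7 CPM (0.82, adjusted p = 0.0077), and SMOC1, of the same family, from 78.5 ± 18.6 to 149.7 ± 52.6 CPM (0.93, adjusted p = 0.013). NTN1, netrin-1, rose from 1.23 ± 0.312 to 4.41 ± 1.51 CPM (1.83, adjusted p = 0.0017).

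PXDN encodes peroxidasin, the enzyme that cross-links collagen IV molecules through sulfilimine bonds. It was at 388, 424 and 527 CPM in MC-F7 and at 655, 584 and 1078 CPM in MT-F7, a log2 fold change of 0.79 (edgeR adjusted p = 0.023). The groups did not overlap, but the call was lost without MC-F7 replicate 1, MC-F7 replicate 2 or MT-F7 replicate 3 (adjusted p of up to 0.095 over the alternatives). Without MT-F7 replicate 3 its log2 fold change was 0.46, and that of SMOC1 was 0.62. SMOC1 lost its call without MC-F7 replicate 2 (adjusted p of up to 0.070).

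Collagens XV and XVIII, which join basement membranes to the matrix around them, went the other way. COL18A1 was at 1617, 1685 and 2114 CPM in MC-F7 and at 877, 711 and 1349.7 CPM in MT-F7. Its MT-F7 libraries were all below the MC-F7 libraries (log2 fold change -0.88, edgeR adjusted p = 0.014), but the call was lost without replicate 1 or replicate 2 of MT-F7, with an adjusted p of up to 0.067 over the alternatives. COL15A1 fell from 331 ± 95.3 to 169 ± 45.2 CPM (log2 fold change -0.97, adjusted p = 0.0088). With limma on the TPM values, which were not scaled to library size, neither collagen passed (adjusted p of 0.055 to 0.068). TINAGL1, a tubulointerstitial nephritis antigen-like matrix protein, fell from 7.24 ± 1.37 to 2.30 ± 0.299 CPM (-1.65, adjusted p = 3.9e-04).

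Receptors for the basement membrane did not move together. Of 18 genes listed 16 were tested, and 4 were higher in MT-F7, 2 were lower and 10 did not pass, with a median log2 fold change of 0.38. Among all genes tested 11.9% were higher and 11.3% lower, so the count of lower receptors was near that of genes in general. The lower ones form the laminin receptor of hemidesmosomes, integrin alpha-6 beta-4. ITGA6 was at 156, 180.2 and 153 CPM in MC-F7 and at 85.9, 71.7 and 69.9 CPM in MT-F7 (log2 fold change -1.10, standard error 0.153, edgeR adjusted p = 2.3e-04). ITGB4 was at 38.5, 38.7 and 37.1 CPM in MC-F7 and at 15.5, 13.6 and 18.9 CPM in MT-F7 (-1.26, standard error 0.167, adjusted p = 1.7e-04). For both genes the groups were far apart, and the beta-1 subunit ITGB1, the other partner of alpha-6, had 108 ± 29.7 and 95.7 ± 12.5 CPM (-0.18, adjusted p = 0.57).

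Among the higher receptors, ITGB5, the beta-5 subunit of a vitronectin receptor, rose from 2.74 ± 0.104 to 13.1 ± 1.01 CPM (log2 fold change 2.25, edgeR adjusted p = 6.4e-06). BCAM, a laminin receptor of the immunoglobulin family, rose from 47.5 ± 5.69 to 100.3 ± 11.5 CPM (1.08, adjusted p = 3.6e-04). LRP4, a receptor of agrin, had a log2 fold change of 0.87 (adjusted p = 0.039), and ITGA7, an alpha subunit of laminin receptors, one of 0.91 (adjusted p = 0.048). Both calls were lost without MC-F7 replicate 1 or 2 and without MT-F7 replicate 1 or 3, with adjusted p values of up to 0.16 for LRP4 and 0.22 for ITGA7. Without MT-F7 replicate 3 the log2 fold changes were 0.55 and 0.43, and the groups overlapped for ITGA7. DAG1, dystroglycan, was at 29.4 ± 6.97 and 19.4 ± 5.97 CPM (-0.60, adjusted p = 0.081). It passed as lower without MC-F7 replicate 1 (0.037) or MT-F7 replicate 3 (0.012), within a range of 0.0012 to 0.29 over the alternatives.

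The 17 genes for folding, hydroxylation and assembly of collagen were all tested. Of these, 3 were higher, 5 were lower and 9 did not pass, with a median log2 fold change of -0.071 (all genes: 11.9% higher, 11.3% lower). The lower genes were the prolyl 4-hydroxylase subunits P4HA1 (log2 fold change -1.23, edgeR adjusted p = 0.0050), P4HA2 (-1.29, adjusted p = 2.2e-04) and P4HA3 (-0.86, adjusted p = 0.018), the lysyl hydroxylase PLOD1 (-0.71, adjusted p = 0.015) and TRAM2, an endoplasmic reticulum protein used in collagen synthesis (-1.14, adjusted p = 0.0054). P4HA2 fell from 47.8 ± 9.70 to 19.5 ± 1.06 CPM. With limma on the TPM values, not scaled to library size, the calls of P4HA1, P4HA3 and PLOD1 were lost (adjusted p of up to 0.12, 0.078 and 0.13). The P4HA3 call was also lost without replicate 1 of either group (up to 0.069), and the PLOD1 call without MC-F7 replicate 1, MC-F7 replicate 2 or MT-F7 replicate 2 (up to 0.077). The higher genes were SPARC and PXDN, which the list of other components also holds, and P3H2, a prolyl 3-hydroxylase known to act on collagen IV. P3H2 rose from 1.04 ± 0.218 to 3.73 ± 0.501 CPM (1.84, adjusted p = 8.9e-04). The collagen chaperone SERPINH1 was at 476 ± 117 and 579 ± 34.7 CPM and did not pass (0.28, adjusted p = 0.31).

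Perlecan and agrin carry heparan sulfate, and 15 of 17 listed genes for its synthesis and editing were tested. Of these 3 were higher in MT-F7, 0 were lower and 12 did not pass (median log2 fold change 0.32), a count in either direction near the 23.2% of all genes tested. EXT1, a subunit of the chain polymerase, rose from 18.8 ± 0.913 to 32.1 ± 2.36 CPM (log2 fold change 0.77, edgeR adjusted p = 0.0029). SULF2, an extracellular enzyme that removes sulfate groups from the chains, had 19.1, 23.1 and 25.1 CPM in MC-F7 and 101, 106 and 94.8 CPM in MT-F7. All MT-F7 libraries were far above all MC-F7 libraries (2.17, standard error 0.160, adjusted p = 1.9e-06). SULF1, of the same function, had a log2 fold change of 0.96 (adjusted p = 0.022), a call that was lost without MC-F7 replicate 1, MC-F7 replicate 2 or MT-F7 replicate 3 (up to 0.080).

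**Figure D4:**
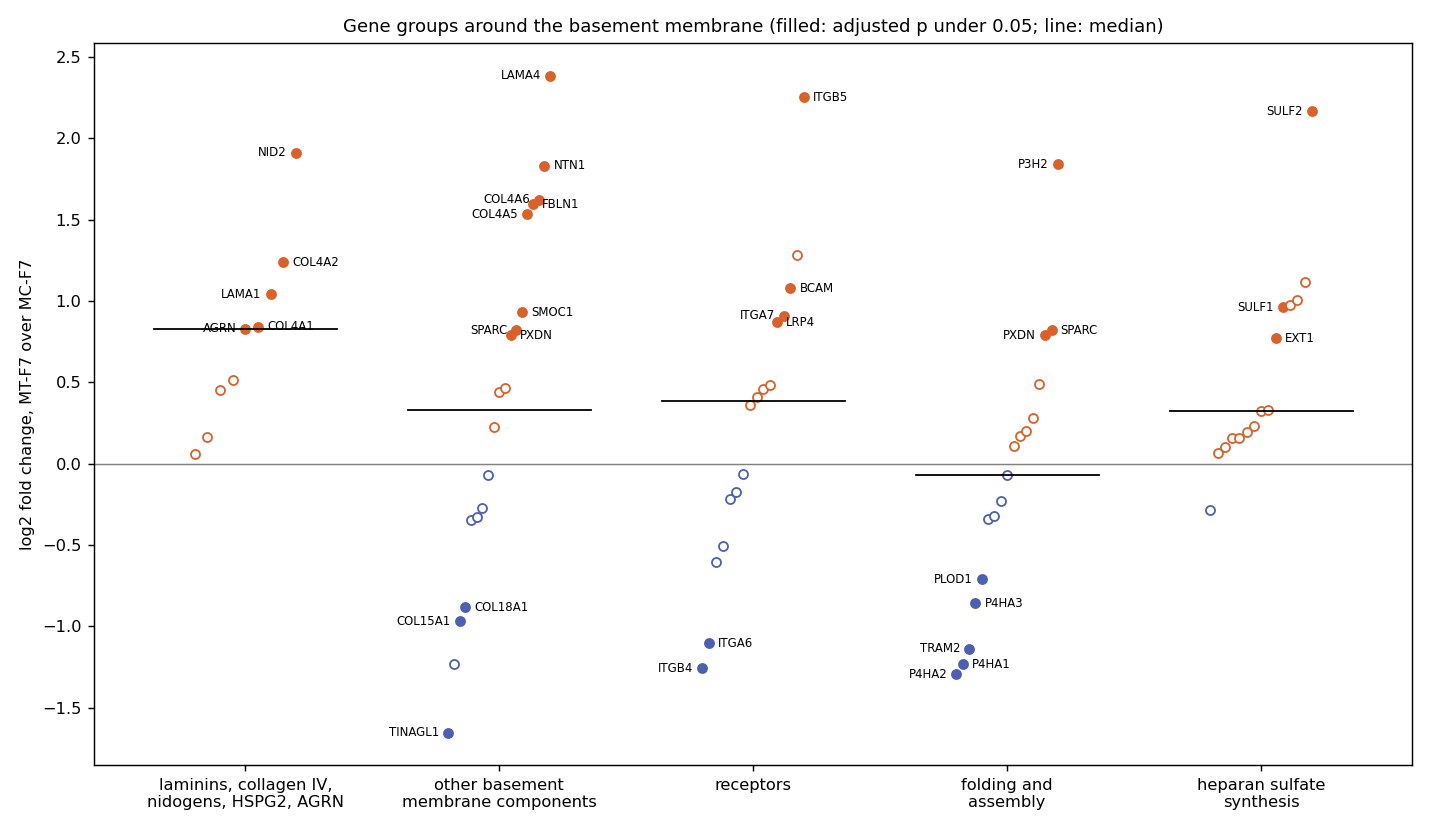
Log2 fold change (MT-F7 over MC-F7, y axis) of the tested genes in 5 lists, 1 gene left out, with filled points at an adjusted p under 0.05 and a line at each median. The 9 core genes are all above 0, as are 14 of the 15 heparan sulfate genes. Receptors and the folding and assembly genes lie on both sides of it.

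Genes of other cell types that lay down basement membrane were measured beside these results. The 14 fibroblast markers summed to 328 to 392 CPM in MC-F7 and to 496 to 538 CPM in MT-F7. Of 13 tested, 4 were higher (COL3A1, COL5A1, PDGFRB and POSTN) and 0 were lower, beside 11.9% higher and 11.3% lower among all genes. The log2 fold change was positive for 10 of the 13 and negative for 3, down to -1.61. COL1A1 was at 205 ± 31.4 and 268 ± 15.6 CPM (log2 fold change 0.39, edgeR adjusted p = 0.094), and PDGFRA, DCN and LUM did not pass. The part of these genes in the rise of the collagen IV, laminin and nidogen genes was not tested.

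Primitive and parietal endoderm produce much of the laminin-111 and collagen IV of the early embryo. Their 11 markers summed to 13.7 to 14.7 CPM in MC-F7 and 11.3 to 12.0 CPM in MT-F7. GATA4 and AFP had 0 counts in all libraries and HNF4A 1 count in total, while GATA6, SOX7 and SOX17 were too low to be tested. Of the 4 tested markers, TTR (log2 fold change 3.76) and DAB2 (2.23) were higher, and FOXA2 (-3.26) and CUBN (-1.46) were lower. Among all genes tested 11.9% were higher and 11.3% lower. DAB2 rose from 1.34 ± 0.281 to 6.31 ± 0.298 CPM (edgeR adjusted p = 6.6e-05).

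The 8 endothelial markers summed to 23.3 to 27.4 CPM in MC-F7 and 31.3 to 36.1 CPM in MT-F7. Of 5 tested, KDR and TEK were higher, EGFL7 was lower and 2 did not pass, beside 11.9% higher and 11.3% lower among all genes. PECAM1, CDH5 and ERG were too low to be tested. The 9 trophectoderm markers summed to 53.1 to 79.9 CPM in MC-F7 and 8.36 to 10.04 CPM in MT-F7, most of it from the keratin KRT7, which fell from 63.7 ± 13.1 to 6.28 ± 0.674 CPM (log2 fold change -3.34, edgeR adjusted p = 6.4e-07). Of 4 tested, KRT7 and GATA2 were lower in MT-F7 and 2 did not pass, beside 11.3% lower among all genes. CDX2 had 0 counts in all libraries. The part of these markers in the results above was not tested.

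Profiles most like that of COL4A1 were sought over the 6 libraries, among 11904 genes, by Pearson's r of log2 CPM, as a description. These were THTPA (r = 0.998), DLC1 (0.997), RAB29 (0.994), CHD3 (0.991) and SDK1 (0.991). RAB29 was low, with a mean of 0.202 ± 0.0781 CPM in MC-F7 and 1.81 ± 0.860 CPM in MT-F7. Its MC-F7 mean was near the limit of 3 counts, so the r of RAB29 rests on few counts in that group. Within the set, r with COL4A1 was 0.945 for COL4A2, 0.942 for LAMA1, 0.904 for AGRN and 0.895 for NID2. It was 0.794 for LAMB1, 0.616 for HSPG2, 0.476 for NID1 and 0.355 for LAMC1. With COL4A1 itself counted as rank 1, COL4A2 ranked 244, and all points share the contrast between the feeders.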

How the data were processed

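RNA-seq of F7 on both feeders (3 libraries each) was used. Per the submitters' processing notes the authors aligned reads with HISAT2 2.0.5 to a cattle genome and counted them per gene with featureCounts 1.5.0-p3. The genome build and the strand setting are not given in the sources used here, so reads of a gene and of an antisense partner may not be told apart. They deposited raw counts per Entrez gene (19163 genes) and a second table in a unit they call TPM (21653 lines). For the listed genes, counts and TPM kept the same proportion in every library, so the TPM columns were not scaled to library size. They did not sum to the same total, and served for levels per length and 2 alternatives, without further scaling. MC-F7 libraries held 21958386 to 23414319 counts and MT-F7 libraries 24271208 to 24933430.

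Genes were filtered by filterByExpr (minimum count 10, minimum total 15), leaving 13001, and normalized by TMM. CPM values use these factors. The feeders were compared by the two-sided quasi-likelihood test of edgeR 4.0.16 (R 4.3.3) without a block, with Benjamini-Hochberg adjustment over all tested genes and a threshold of 0.05. Ratios between genes were compared by exact permutation tests. Errors are SDs over 3 libraries.

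The genes and lists were chosen with earlier results of these data known. From each further list up to 8 called genes were named, those with the highest mean CPM first, and the remaining named genes of these lists (such as LAMA4, NTN1, TINAGL1 and the genes that did not pass) were chosen after their values were seen. 1 gene counted in the list of other components is not reported here. On simulated data with 200 changed genes among 19163, the test recovered 183, of which 73 of 89 changed 2-fold and 110 of 111 changed 4-fold, with 9 false calls. The simulation gave every gene the same dispersion (0.034), a measure of spread beyond counting error. It held no replicate effect and changed only genes above a limit on mean counts, so these rates may not hold for the real libraries. Alternatives were other scaling factors, count filters, DESeq2 1.42.0, the likelihood ratio test, the replicate block, each library left out, limma 3.58.1 on log2(TPM + 1) and log2(TPM + 0.1), removal of mitochondrial genes, and a log2 fold change over 1. Python 3.11.15 was used for the tables, with pandas 2.3.3, scipy 1.17.1 and numpy 2.4.6. Gene names and neighbours came from the RefSeq table of ARS-UCD2.0. Its start positions were used only to look for protein-coding genes between COL4A1 and COL4A2.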

Additional observations from a re-analysis of the deposited data

How the results depend on the processing

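The 5 genes called higher (COL4A1, COL4A2, LAMA1, NID2 and AGRN) were called under every alternative except the log2 fold change over 1, which left 3 of them. With 1 library left out, 5 to 6 of the 9 genes were called higher and 0 lower. Replicates carry the same numbers on both feeders, and same-numbered libraries correlated at 0.188, 0.0893 and 0.544 in their deviations from the group means. Libraries with unlike numbers were not compared in this way, so these values cannot decide whether the numbers pair the samples. The main test used no block. With the replicate block, 7 of the 9 genes were called higher (LAMB1, adjusted p = 0.0089, and HSPG2, adjusted p = 0.0066, were added), 10 receptors were called, 4 of them lower (among them DAG1, adjusted p = 0.0012), LAMB2 was called (0.0082), and 4674 genes were called in all, 2373 higher and 2301 lower.

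A log2 fold change over 1 left 7 other components (5 higher, 2 lower), 2 higher receptors, 4 folding and assembly genes (1 higher, 3 lower), 1 heparan sulfate gene, which was higher, and 1489 genes in all (797 higher, 692 lower). limma on log2(TPM + 1) called 1 other component and 2 folding genes lower, 5 folding genes in all, and 813 genes lower. With log2(TPM + 0.1) these were 2, 2, 5 and 837. The TPM values were not scaled to library size, and the 2 fits called 1549 and 1575 genes higher. Without replicate 3 of both groups, added after the data had been seen, 4 receptors were lower, beside 2047 of 13073 genes in all. DESeq2 called 3390 genes.

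With 1 library left out, the count of all genes ran from 1914 to 3093 (1019 to 1592 higher, 895 to 1567 lower), and the lowest came without MC-F7 replicate 2. Counts ran from 2 to 4 for higher receptors (2 without MC-F7 replicate 1, MT-F7 replicate 1 or MT-F7 replicate 3) and from 5 to 8 for folding genes (3 to 5 lower), with the lowest folding counts without MC-F7 replicate 1. LAMC1 ran from -0.063 to 0.15, reaching -0.023 and -0.063 without MC-F7 replicate 3 and MT-F7 replicate 1, and LAMB3 from -0.68 to 0.028, positive without MC-F7 replicate 3. The causes were not tested.

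The log2 ratio of NID2 to NID1 (1.72) was 1.39 with a pseudocount of 0.1. With 1 library left out it ran from 1.53 to 1.83, that of COL4A2 to COL4A1 from 0.27 to 0.57 and that of LAMB1 to LAMC1 from 0.29 to 0.46. The ratio of LAMA5 to LAMA1 could not be computed. Depth limited LAMA3 and COL4A3, which had few counts.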

Other observations

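Some basement membrane genes of epithelial junctions and folds were also measured and did not pass the test. FRAS1, FREM1 and FREM2, which together anchor embryonic epithelium to the dermis, had log2 fold changes of -0.072, 0.44 and -0.33 (edgeR adjusted p = 0.87, 0.50 and 0.35), at 9.31 ± 2.57, 0.855 ± 0.162 and 4.51 ± 0.769 CPM in MC-F7. The collagen receptor DDR1 was at 327 ± 29.0 CPM in MC-F7 and 419.6 ± 85.7 CPM in MT-F7 (log2 fold change 0.36, adjusted p = 0.16). The related DDR2 was low, at 0.578 ± 0.295 and 1.42 ± 0.128 CPM, and missed the threshold narrowly (1.28, adjusted p = 0.052).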
